A study of Mus musculus with 2 samples.

Results

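The CXC chemokines are small secreted proteins that guide leukocytes along a gradient toward receptors of the CXCR family, and the name refers to a pair of cysteines set apart by a single residue. The ligands Cxcl1, Cxcl2 and Cxcl3 act on Cxcr2 and recruit neutrophils, and their genes are classical targets of NF-κB. Cxcl9, Cxcl10 and Cxcl11 are interferon-inducible ligands of Cxcr3 that attract T cells and NK cells. Pf4 (platelet factor 4, also named Cxcl4) is best known from platelet granules but is also transcribed in macrophages. Cxcl12 binds Cxcr4 and retains cells in the bone marrow, Cxcl14 is a homeostatic chemokine of epithelia and stroma, and Cxcl16 is a transmembrane scavenger receptor that is shed as a ligand of Cxcr6.

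These 10 genes were read on the arrays of the study, and probes were assigned to them by the RefSeq accession in the scanner output. Of the 10 genes, 9 were matched by 11 probes, out of 20656 genes named in this way and 39424 probes in all, and Cxcl11 was not matched to a probe. RNA came from bone marrow-derived macrophages (BMDMs) of male mice aged 8 weeks with the genotype Crif1 f/f. No Cre driver is named for these mice, and the floxed allele is shared by the untreated and the treated cells. The methods give a range of mice per group for the experiments in general, but do not say how many stand behind each array or whether their cells were pooled. Marrow cells had been cultured with M-CSF before the experiment. BMDMs left untreated and BMDMs given IL-4, a Th2 cytokine that signals through STAT6 and drives the M2-like state, were compared at 18 h, with 1 single-colour array per condition. The IL-4 concentration used for the arrays was not given in the sources used here. With 1 array per condition no difference below has a replicate check or a p-value, and precision is limited by this number.

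Signals are background-subtracted intensities on a log2 scale, from which the 75th percentile of the array was subtracted, and each difference is IL-4 minus untreated. The software's flag for a spot well above background was taken from the files. Where a probe carried this flag on 1 array only, the difference is a bound, taken against the higher of the dim signal itself and the lowest flagged signal of that array, which was 29.2 intensity units for untreated and 27.9 for IL-4-treated BMDMs. Where the dim signal was the higher of these, the value is the ratio as read and not a limit. Each member probe was printed in 1 spot, and no such spot was saturated or marked as an outlier. The error beside a difference is the SD between spots of probes printed in 10 spots at a similar signal, followed by the error that the software itself assigned to the spot pair. Neither error covers the spread between cultures.

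At a 2-fold change, 1 of the 9 genes was lower after IL-4, Cxcl9, and 0 were higher. The background for these counts was 3.35% lower and 3.06% higher among the 14073 genes detected, that is, flagged on 1 array or both. Pf4, Cxcl12, Cxcl14 and Cxcl16 were detected on both arrays, with log2 differences between -0.38 and -0.20. Cxcl1 and Cxcl10 were also detected on both arrays and had the higher signal with IL-4. Cxcl2 and Cxcl3 were detected only with IL-4, and Cxcl9 only without it. The median log2 difference of the 6 genes measured on both arrays was -0.22, against -0.01 for all 12744 such genes, whose middle range between the quartiles ran from -0.19 to 0.15. Higher genes made up 47.7% of all changed genes, and this share was 67.7% with median scaling, 65.0% with quantile normalization, 59.7% with cyclic loess, 57.8% without scaling and 73.4% with scaling on spike-in controls.

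**Figure D1:**
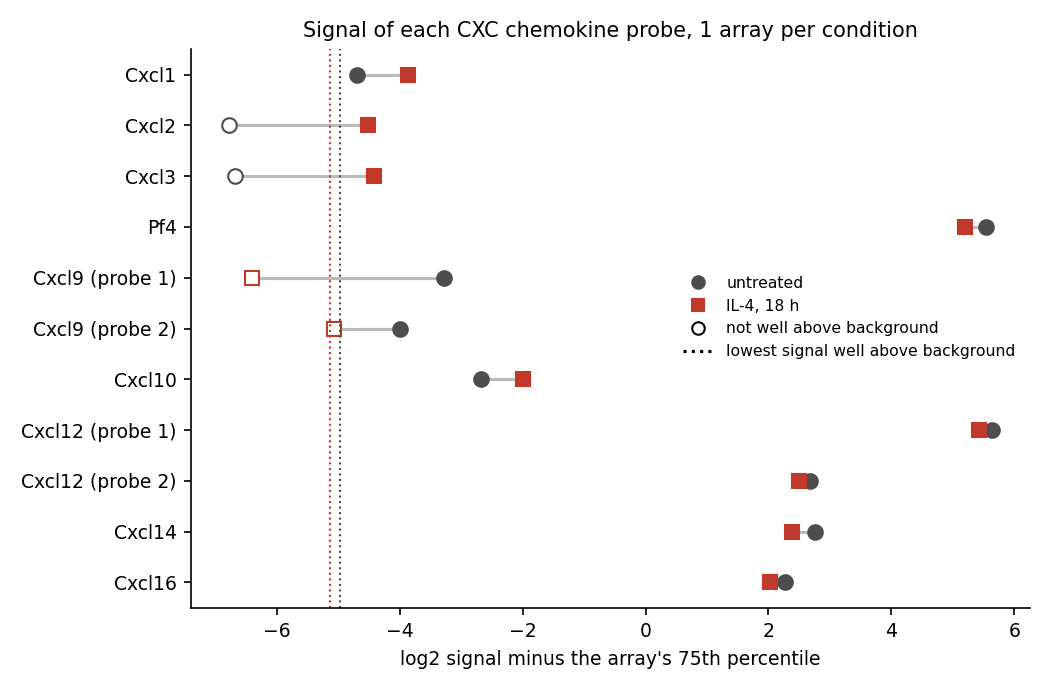
Signal of the 11 CXC chemokine probes on the untreated array (grey circles) and the IL-4 array (red squares), as log2 signal minus the 75th percentile of the array (x axis). Open symbols were not well above background and dotted lines mark the lowest signal that was, so the values of Cxcl2 and Cxcl3 without IL-4 and of Cxcl9 with IL-4 lie below or close to the limit, while Pf4 and Cxcl12 probe 1 (NM_001012477) lie above 5 on both arrays.

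Among the neutrophil attractants, Cxcl1 was detected in both conditions and Cxcl2 and Cxcl3 after IL-4 alone. The probe for Cxcl1 (NM_008176) had an intensity of 35.3 without IL-4 and 67.4 with IL-4, and both spots were well above background. The IL-4 array was the higher one, although the untreated signal stood only just over the detection limit. The log2 difference was 0.83, a 1.78-fold higher signal, with an SD between spots of 0.28 and a software error of 0.37. For genes of similar signal, the median difference was -0.18, and the range between the quartiles ran from -0.47 to 0.08. With another background correction, normexp on the median pixel intensity, the difference of Cxcl1 was 0.05.

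Cxcl2 (NM_009140), also known as MIP-2, had an intensity of 8.35 without IL-4 and 42.7 with IL-4. Cxcl3 (NM_203320) had an intensity of 8.95 without IL-4 and 46.0 with IL-4. Both probes were detected after IL-4 alone, so both differences are bounds, of at least 1.36-fold for Cxcl2 and at least 1.47-fold for Cxcl3. Set against the 5th percentile of the signals well above background, a limit chosen after seeing the data, the log2 bound of Cxcl3 was 0.0019 and Cxcl2 had none. The signals as read differed by 2.26 log2 units for each of these genes, but the software gave the untreated spots an error of 96.1% and 84.7% of their intensity. Before background subtraction, the median pixel intensity of the Cxcl2 spot was 73 and 107.5 on the untreated and IL-4 arrays, and that of the Cxcl3 spot was 69.5 and 101. The 153 negative control spots reached at most 82 without IL-4 and 80.5 with it, with a median of 57 on each array, so these untreated spots lay inside the range of the negative controls and the IL-4 spots above it. Of all genes, 488 were detected after IL-4 alone and 841 in untreated cells alone. The sequences of the array probes were not used here, so cross-hybridisation between the transcripts of these related genes was not tested.

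The promoters of Cxcl1, Cxcl2, Cxcl3 and Cxcl10 are shown because they hold the NF-κB consensus, a motif that was chosen with the differences of these genes known, so its presence bears no weight on their direction. The bases just upstream of the annotated start were taken from RefSeq on GRCm38.p6, and capitals mark matches to the NF-κB consensus site and, in Cxcl10, also to the interferon-stimulated response element (ISRE) core, which is GAAA, then any 2 bases, then GAAA. Both strands were searched, and where a match on each strand overlaps with an offset of 1 base, they appear as 1 run of 11 capitals. The 4 stretches are chr5:90891125-90891244 on the plus strand for Cxcl1, chr5:90903779-90903898 on the plus strand for Cxcl2, chr5:90785981-90786100 on the plus strand for Cxcl3 and chr5:92348890-92349109 on the minus strand for Cxcl10.
Cxcl1: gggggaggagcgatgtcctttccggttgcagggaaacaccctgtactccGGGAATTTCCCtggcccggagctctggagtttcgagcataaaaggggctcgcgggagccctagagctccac
Cxcl2: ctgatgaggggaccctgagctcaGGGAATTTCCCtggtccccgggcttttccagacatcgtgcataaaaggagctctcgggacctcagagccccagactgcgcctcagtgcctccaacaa
Cxcl3: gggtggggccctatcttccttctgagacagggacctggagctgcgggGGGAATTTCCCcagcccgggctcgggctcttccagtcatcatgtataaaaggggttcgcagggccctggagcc
Cxcl10: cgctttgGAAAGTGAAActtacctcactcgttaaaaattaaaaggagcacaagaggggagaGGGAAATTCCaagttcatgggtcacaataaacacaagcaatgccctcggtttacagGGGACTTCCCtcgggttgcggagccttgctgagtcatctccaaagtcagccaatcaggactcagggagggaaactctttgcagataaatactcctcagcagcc

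The same 11 bases, GGGAATTTCCC, stand in the promoters of Cxcl1, Cxcl2 and Cxcl3. Counted from the annotated start, they begin at position -71 in Cxcl1, -97 in Cxcl2 and -73 in Cxcl3. The Cxcl10 stretch holds different matches, GGGAAATTCC from position -159 and GGGACTTCCC from position -103, and an ISRE core from position -213. The RefSeq table held a window of 250 bases before to 50 bases after the start for 8 of the 10 members. The NF-κB consensus was found in 4 of these 8 windows, and in 4.51% of all 32851 windows. The 4 windows belong to Cxcl1, Cxcl2, Cxcl3 and Cxcl10, and the windows of Pf4, Cxcl9, Cxcl12 and Cxcl14 held no match. The ISRE core was found in the windows of Cxcl10 and Cxcl14, and in 3.44% of all windows. A STAT motif, TTCNNNGAA, was found in that of Cxcl14 and in 8.30% of all windows. The STAT6 motif, TTC and GAA with any 4 bases between them, was found in 0 of the 8 windows and in 6.95% of all.

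These matches describe letters and are not evidence of binding. Among other genes detected on both arrays, the 647 with the consensus in a window had a median log2 difference of -0.02, and the 9512 without it had one of -0.01. A difference of 2-fold or more upward was read for 3.55% of the former and 2.18% of the latter, and downward for 1.55% and 1.41%.

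**Figure D2:**
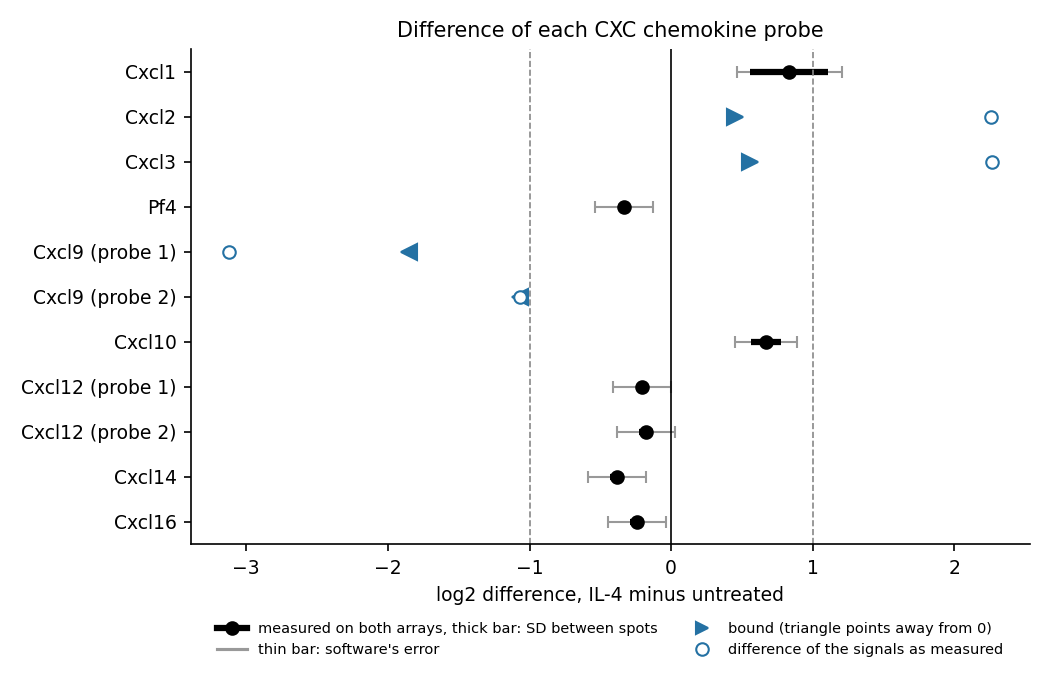
Log2 difference of each CXC chemokine probe, IL-4 minus untreated (x axis), with the SD between spots (thick bar) and the software's error (thin bar) for probes measured on both arrays. Triangles are probes flagged on 1 array only, drawn at their bound, with open circles for the signals as measured. For Cxcl9 probe 2 (57.1 without IL-4) triangle and circle coincide. Dashed lines mark 2-fold. Cxcl1 and Cxcl10 lie right of 0 by more than either error, and the 2 Cxcl9 triangles lie left of -1.

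The Cxcr3 ligands did not share a direction. The probe for Cxcl10 (NM_021274), also known as IP-10, had an intensity of 143.7 without and 244.9 with IL-4, both well above background. The IL-4 array was higher by 0.67 log2 units, or 1.59-fold, with an SD between spots of 0.10 and a software error of 0.22. Genes of similar signal had a median difference of -0.09 and quartiles of -0.29 and 0.11. With normexp the difference of Cxcl10 was 0.37.

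Cxcl9 (NM_008599), also known as MIG, was read by 2 probes. The probe with the higher mean log2 signal had an intensity of 57.1 without IL-4 and 29.3 with IL-4, and the other probe had 94.0 without IL-4 and 11.6 with IL-4. Both probes were flagged as well above background in untreated BMDMs only, and the untreated array was the higher one for each. Before background subtraction, the median pixel intensity with IL-4 was 88 at the former probe and 80 at the latter. The negative control spots of that array reached at most 80.5. The former IL-4 spot thus lay above their range and the latter inside it, so Cxcl9 cannot be called absent after IL-4. The former probe, which gives the value of the gene, was 2.09-fold lower. This is the ratio as read and not a limit, because its dim IL-4 signal lay above the lowest flagged signal. Its SD between spots was 0.30 and its software error 0.54 on the log2 scale. The latter probe was at least 3.61-fold lower. The error assigned by the software was 18.8% and 11.9% of the untreated intensity at these probes, and 32.0% and 50.2% of the IL-4 intensity. With these values Cxcl9 and Cxcl10 went in opposite directions, a difference between the genes that was not tested. The call of Cxcl9 at 2-fold was lost with 5 of the 6 other scalings, where its value lay between -0.96 and -0.71 on the log2 scale. It was also lost with the 5th percentile limit, at -0.47.

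Genes of the interferon pathway were counted beside these ligands. Of 14 genes for interferons, their receptors, kinases and transcription factors, 11 were detected on both arrays. A signal 2-fold or more higher after IL-4 was read for 2 genes and a lower one for 0, beside 3.06% and 3.35% of all detected genes. These were Jak2, a kinase of the interferon-γ receptor, at 2.27-fold, and Socs1, a feedback inhibitor of JAK kinases, at 20.7-fold. The other 9 lay between -0.25 and 0.61. Of 12 interferon-stimulated genes, 11 were matched, with 3 of them 2-fold or more higher and 0 lower, beside the same 3.06% and 3.35%. These were Irf7, which amplifies the interferon response, at 2.53-fold, Usp18, which removes ISG15 from proteins, at 2.74-fold, and Ifit1, an RNA-binding antiviral protein, with a bound of at least 2.02-fold. Of the 10 measured on both arrays, 5 had a positive and 5 a negative difference.

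Of 12 genes of the NF-κB pathway and its inflammatory cytokines, 11 were detected on both arrays, and 9 of these had a positive difference, as did 47.7% of all genes detected on both arrays, a share that depends on the scaling. Nfkb1, which encodes the p50 subunit, was 2.24-fold higher, and the cytokine gene Il6 was 2.14-fold higher. Nfkbiz, a nuclear cofactor of NF-κB, was 2.05-fold lower. The other 8 lay between -0.29 and 0.92, and the median of all 11 was 0.41. The transcripts of Cxcl1 and Cxcl2 are short-lived, and 6 regulators of such transcripts were read as well. Zc3h12a, which encodes the RNase Regnase-1, was 2.04-fold higher at a low signal, 92.8 without and 202.8 with IL-4. The other 5 lay between -0.29 and 0.51. Among all genes detected on both arrays, 2.31% were at least 2-fold higher and 1.44% lower.

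Pf4, Cxcl12, Cxcl14 and Cxcl16 all had the lower signal after IL-4. Pf4 (NM_019932) had an intensity of 42569 without and 36191 with IL-4. The untreated array was the higher one, by 1.26-fold, with a log2 difference of -0.33, an SD between spots of 0.04, from 5 repeated probes only, and a software error of 0.20. Genes of similar signal had a median difference of 0.05 and a lower quartile of -0.08.

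Cxcl12 was read by 2 probes, designed to different RefSeq transcripts. The former (NM_001012477) had an intensity of 45374 without and 42182 with IL-4, and the latter (NM_021704) had 5838 without and 5540 with IL-4. The untreated array was slightly higher at both probes, with log2 differences of -0.20 and -0.18. These exceeded the SD between spots of 0.04 and 0.05, while the software error of 0.20 was about as large as the former difference and larger than the latter. The former SD rests on 3 repeated probes only and the latter on 62, and both describe spots within these arrays.

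Cxcl14 (NM_019568) had an intensity of 6211 without and 5112 with IL-4, and Cxcl16 (NM_023158) had 4428 without and 4009 with IL-4. Both were higher in untreated BMDMs. The log2 difference was -0.38 for Cxcl14, or 1.30-fold, and -0.24 for Cxcl16, or 1.18-fold, with an SD between spots of 0.05 and a software error of 0.20 for each.

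These differences are small and depend on the scaling. Median scaling and scaling on spike-in controls moved the median of all genes from -0.01 to 0.20 and 0.27, and moved Cxcl12 to 0.01 and 0.08. Spike-in scaling moved Cxcl16 to 0.04 also, while Pf4 and Cxcl14 stayed negative in each of the 6 other scalings. Relative to the median of all genes, the difference over the 6 other scalings lay between -0.40 and -0.32 for Pf4, between -0.27 and -0.19 for Cxcl12, between -0.43 and -0.37 for Cxcl14 and between -0.28 and -0.23 for Cxcl16. Only quantile normalization and cyclic loess could alter this relative difference. The other scalings shift all genes of an array by the same amount and leave it fixed, so the narrow ranges are no check by those. On the same relative scale, Cxcl10 lay between 0.68 and 0.77 and Cxcl1 between 0.85 and 1.19.

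**Figure D3:**
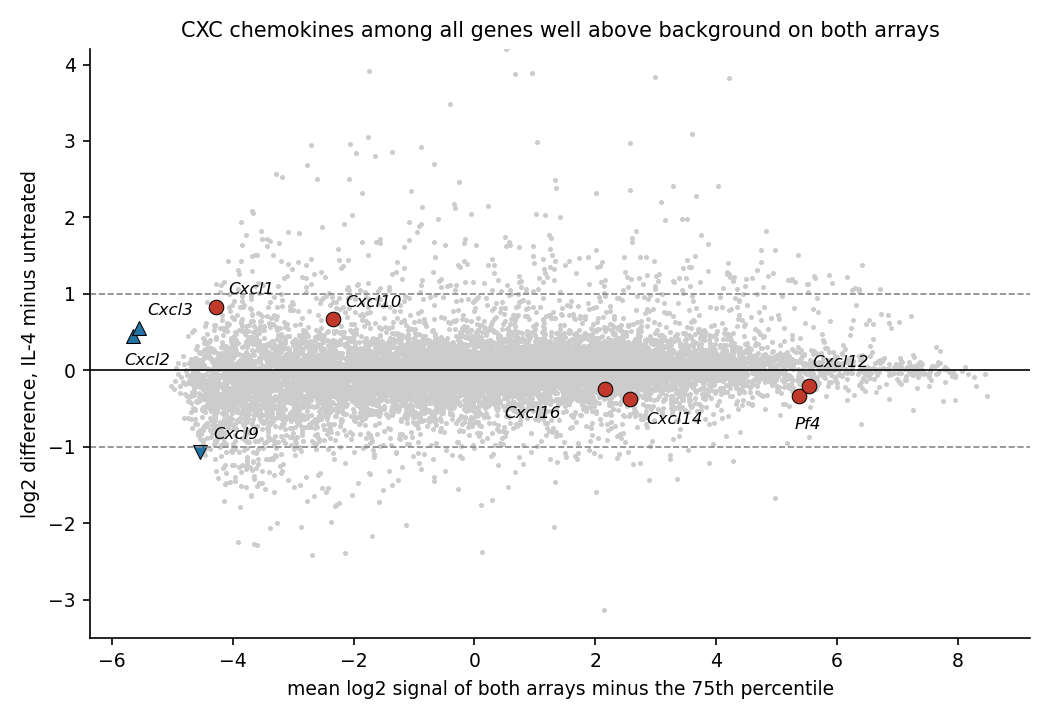
Log2 difference, IL-4 minus untreated (y axis), against the mean log2 signal of both arrays (x axis) for the 12744 genes detected on both arrays (grey), with the CXC chemokines in red where measured on both arrays and as blue triangles where the value is a bound. Pf4, Cxcl12, Cxcl14 and Cxcl16 lie on the right just under 0 and the other members at low signal on the left, and 8 genes above 4.2 fall outside the axis.

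Markers of macrophages were read, and markers of other cells that make these chemokines beside them. Of 8 macrophage markers, 7 were matched and all 7 were well above background on both arrays, among them Csf1r, Adgre1 and Lyz2. After IL-4, Cd14, Mertk and Fcgr1 were at least 2-fold lower, at 2.68-fold, 2.20-fold and 2.34-fold. Of all genes detected on both arrays, 1.44% were at least 2-fold lower. The median log2 difference of the 7 macrophage markers was -0.71, with 5 negative and 2 positive. The M2 genes Arg1, Retnla, Chil3 and Mrc1 were each at least 5.33-fold higher on the array labelled IL-4. All 8 markers of stromal cells, a known source of Cxcl12 and Cxcl14, were also well above background on both arrays, including the collagen genes Col1a1, Col1a2 and Col3a1. The summed intensity of the stromal markers was 329387 without and 321514 with IL-4, and their median log2 difference was -0.12. For the 7 matched macrophage markers the sum was 296935 without and 273913 with IL-4. A few bright probes set each sum, so the sums do not rank the lists by brightness. Without IL-4, Col1a2 alone had 233342 and Lum 143 among the stromal markers. Csf1r alone had 146026 and Mertk 2263 among the macrophage markers. Signals of different probes do not give the share of each cell type, which was not tested here. The paper's methods report a high purity of its BMDM cultures, measured by flow cytometry of macrophage surface proteins. They do not say whether the cultures behind the arrays were among those measured. Of 7 markers of megakaryocytes and platelets, a known source of Pf4, 5 were above background on both arrays and Gp1ba and Gp6 on neither, the sum was 2329 without and 2092 with IL-4, and the median difference was -0.10. Itga2b, the platelet integrin αIIb, was 2.72-fold lower at a low signal, 97.2 without and 38.3 with IL-4, with an SD between spots of 0.23. The brightest probes of Treml1, Gp1bb and Gp9 lay between -0.10 and 0.01, and Ppbp was at -0.56. Treml1 alone held 1502 of the untreated sum. The part of stromal cells, megakaryocytes and platelets in the values of Cxcl12, Cxcl14 and Pf4 was not tested. In bulk RNA, fewer cells of a type and less RNA per cell cannot be told apart.

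Of the neutrophil markers, 6 of 7 were matched and all 6 were above background on both arrays, with a median difference of -0.20. Of 5 endothelial markers, 4 were above background on both arrays, with a median difference of 0.05. Of 6 lymphocyte markers, 4 were above background on neither array, while Cd3e was detected on both, at 343.1 without and 296.4 with IL-4, and Ncr1 in untreated cells alone. Of 5 dendritic cell markers, Flt3, Xcr1 and Clec9a were above background on neither array. Siglech was well above it on both, at 29067 without and 31659 with IL-4, and so was Zbtb46, at 48.2 without and 36.1 with IL-4.

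The members that lie side by side on the chromosome differed in detection and direction. In the annotation, Cxcl5, Ppbp, Pf4, Cxcl3, Cxcl15, Cxcl1 and Cxcl2 follow each other among protein-coding genes, and Cxcl9 and Cxcl10 lie around Art3. Within the former cluster Pf4 was detected on both arrays and lower after IL-4, while Cxcl1 was higher and Cxcl2 and Cxcl3 were detected only with IL-4. Cxcl5, a further ligand of Cxcr2, had an intensity of 597 without and 634 with IL-4 and a log2 difference of -0.01. Ppbp, which encodes the precursor of Cxcl7, had 534 without and 389 with IL-4 and a difference of -0.56. Cxcl15, Cxcl13 and Cxcl17 were detected on neither array.

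**Figure D4:**
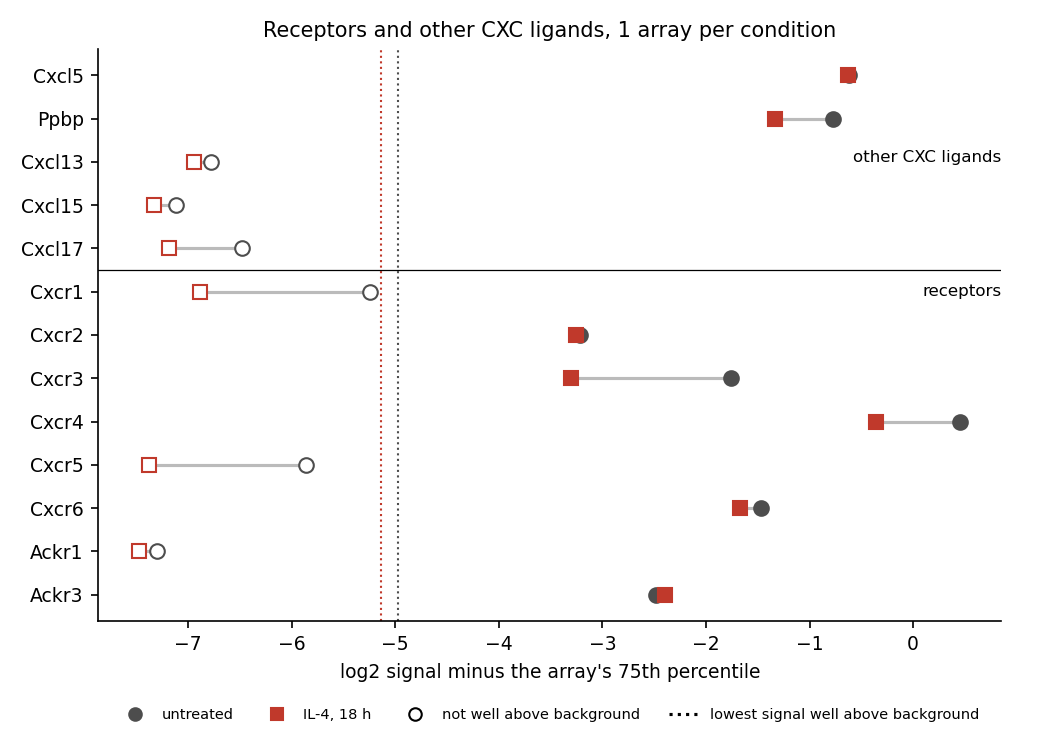
Signal of 5 further CXC ligands and 8 receptors on the untreated array (grey circles) and the IL-4 array (red squares), as log2 signal minus the 75th percentile of the array (x axis), with open symbols for spots not well above background and dotted lines at the lowest signal that was. Cxcr3 and Cxcr4 lie lower on the IL-4 array, and Cxcr2, Cxcr6 and Ackr3 lie close together on both.

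The receptors were read with their ligands. Of 8 receptor genes, 5 were detected on both arrays, and 1 of them, Cxcr3, reached a 2-fold difference, a lower signal, as did 1.44% of all genes detected on both arrays. Cxcr3, the receptor of Cxcl9 and Cxcl10, had an intensity of 271 without and 99.6 with IL-4 and was 2.92-fold lower, with a log2 difference of -1.54 and an SD between spots of 0.11. Cxcr4, the receptor of Cxcl12, had 1254 without and 762 with IL-4 and a difference of -0.82. On this scale both the ligand and the receptor had the lower signal with IL-4, but Cxcl12 was at 0.01 with median scaling and 0.08 with spike-in scaling. Cxcr6, the receptor of Cxcl16, was at -0.20 at 1 probe and -0.14 at the other. Cxcr2, the receptor of Cxcl1, Cxcl2 and Cxcl3, was at -0.04, and Ackr3, a scavenging receptor of Cxcl12, at 0.08. Cxcr1, Cxcr5 and Ackr1 were detected on neither array.

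Of 7 genes for proteases that shed or trim these ligands, 6 were detected on both arrays and 0 reached a 2-fold difference. Among all genes detected on both arrays, 2.31% were at least 2-fold higher and 1.44% lower. The brightest probes of the 6 genes ranged from -0.61 to 0.23. Adam10 and Adam17, which release Cxcl16 from the cell surface, had log2 differences of 0.08 and 0.17. The dimmer probe of Adam17 had a difference or bound of 0.45, and that of Mmp12 one of 0.72. Dpp4, which inactivates Cxcl10 and Cxcl12 at the N terminus, was detected on neither array.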

How the data were processed

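Cy3-labelled RNA of each condition, untreated or 18 h of IL-4, was hybridised to 1 Agilent mouse array. The authors deposited the output of Feature Extraction 10.10.1.1 with default settings, in which spot intensity had its background subtracted and spatial trend removed, with no scaling between arrays. The software's flags were taken as deposited. A second table deposited by the authors holds log2 values with an unstated centring and served as an alternative only, and its member differences lay 0.00056 from those of the scanner.

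Control and outlier spots were dropped, repeated spots were averaged per probe as log2, and each array was set relative to its own 75th percentile. Genes were named by RefSeq accession from a table of GRCm38.p6, which matched 27229 of 39424 probes, and where a gene had several probes its brightest, by mean log2, gave the value. The array design was annotated on mm9, so the table served for names and gene order only, and promoter windows were matched by symbol. "At least 2-fold" means a log2 difference of 1 or more in size, counted with no test. Genes of similar signal are those detected on both arrays whose mean log2 signal lay within 0.5 of the probe, and the SD between spots was taken over probes printed in 10 spots within 1 log2 unit. The members, gene lists and motifs were chosen with earlier results of these data known. By rule, the text names the members, the other CXC ligands, the receptors, the 4 IL-4 markers and, from the other lists, genes that reached 2-fold, and the few further list genes it names were chosen after their values were seen. Values of some list genes are not reported here. Other scalings, background correction, filters on dim probes, probe rules and thresholds were tried. Python 3.11.15, numpy 2.4.6, pandas 2.3.3, matplotlib 3.10.9, R 4.3.3 and limma 3.58.1 were used.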

Additional observations from a re-analysis of the deposited data

How the results depend on the processing

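No paired analysis was possible because only 1 array represents a condition, and for the same reason none could be left out. Members at least 2-fold higher, 0 in the text, numbered 1 with median scaling, cyclic loess and spike-in scaling, and 2 with quantile normalization, a 1.5-fold threshold, no filter on dim probes, positive and significant signals, and the authors' processed values. Members at least 2-fold lower, 1 in the text, numbered 0 with every other scaling except the 75th percentile over probes detected on both arrays, and with probes above background on both arrays only, a 3-fold threshold, and a bound at the 5th percentile of detected signals, which was chosen after seeing the data. The median difference of the members on both arrays, -0.22 in the text, was -0.0096 with median scaling, -0.29 with quantile normalization, -0.28 with the 75th percentile taken over detected probes, -0.12 unscaled, and 0.062 with spike-in scaling. The sign changed for Cxcl12, to 0.0094 with median scaling and 0.081 with spike-in scaling, and for Cxcl16, to 0.043 with spike-in scaling. A filter, bound or threshold alters a count by construction, but why the scalings differ was not tested. With normexp on the median pixel intensity, Cxcl1 was at 0.05 and Cxcl10 at 0.37, and with the 5th percentile bound Cxcl3 was at 0.0019 and Cxcl2 had no bound, so the low signal over background limits what can be said of them. Of all genes, 431 were counted as higher and 472 as lower, and over the settings run, the 1.5-fold and 3-fold thresholds included, these counts ranged from 160 to 895 and from 133 to 2077.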
